A study of Mus musculus with 9 samples.

Results

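The clustered protocadherins of the mouse lie in 3 neighbouring gene clusters, alpha, beta and gamma, on chromosome 18 of the mm10 (GRCm38) build. Members were taken by name and place, as the genes of that chromosome whose symbols begin with Pcdha, Pcdhb or Pcdhg inside the cluster interval. The rule found 58 of the 49997 genes in the RefSeq table, with starts from 36930285 (Pcdha1) to 37819546 (Pcdhgc5). They were read as 12 alternate alpha genes, 22 beta genes, 19 alternate gamma genes (12 named Pcdhga and 7 named Pcdhgb) and 5 C-type genes (Pcdhac1, Pcdhac2, Pcdhgc3, Pcdhgc4 and Pcdhgc5). Pcdhgb8 is annotated as a transcribed pseudogene and the other 57 as protein-coding. The rule itself uses no methylation value, though the clusters were picked for description with earlier results of these data known.

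Clustered protocadherins are adhesion proteins of the neuronal surface that bind their own kind between cells and help sister branches of a neuron avoid each other. In the alpha and gamma clusters each variable exon has its own promoter and is spliced to constant exons at the far end of the cluster, whereas each beta gene is a single exon. A neuron is known to use a small, largely random choice of the alternate and beta promoters, those it does not use being methylated, while the C-type promoters, which stand last in the alpha and gamma clusters, are used by most neurons of a kind without that choice.

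Whole-genome bisulfite sequencing was done on nucleus accumbens punches, a part of the ventral striatum in the reward circuit. All 9 libraries are from C57BL/6J males, 8 weeks old, with 5 labelled Control (numbers 2, 3, 4, 5 and 8) and 4 labelled Susceptible (numbers 2, 3, 6 and 7). The labels describe social defeat by a CD1 aggressor once a day for 10 days and name no transgene, allele or drug for either group. That text is the same for each library, so the sources used here do not tell what the Control mice underwent or what made a mouse Susceptible. The comparison asks whether methylation differed between the 2 groups.

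Bisulfite leaves methylated cytosines as C, so a level is the percent of calls at CpGs that stayed C, and hydroxymethylated cytosines, which also stay, were not told apart. For each member the calls within 1 kb on either side of its annotated start were added, and none of the 58 windows fell under 3 CpGs or 20 calls in any library. No 2 windows overlapped, the closest pair being 1779 bp apart. In bulk tissue, a mixture of methylated and unmethylated cells and a mixture within each cell cannot be told apart, nor can fewer cells of a type and less signal per cell.

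The libraries held 313475624 to 570984634 listed calls, and over the protocadherin interval their levels were alike, from 59.1% (Susceptible 7) to 61.04% (Susceptible 2). The windows of all 10 striatal projection neuron genes fixed as markers were below 20%, from 2.43% at Pde10a to 15.7% at Drd2, and their mean per library was 6.96 to 8.62% in Control and 7.54 to 8.73% in Susceptible. Control 5 and Control 8 stood apart from the rest in how far the 2 strands of a CpG differed. Within the interval the Pearson statistic per CpG, which is 1 for binomial counts, was 16.4 in Control 5 and 18.2 in Control 8, and 2.09 to 5.39 in the other 7. These libraries also listed the fewest cytosines there, 8546 and 9858 against 11781 to 13925.

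The 5 C-type starts were far less methylated than the alternate starts. Their mean level was 11.4% ± 2.21 (SD, n = 9 libraries), against 48.7% ± 1.97 for the alternate alpha starts, 38.7% ± 0.932 for the alternate gamma starts and 61.6% ± 2.19 for the beta starts. Within a library the C-type level was 31.2 points ± 1.95 below that of the alternate alpha and gamma starts together. It was lower in 9 of 9 libraries, by 28.5 to 34.1 points (two-sided exact sign-flip permutation test over libraries, p = 0.00391, the smallest this design can give; adjusted p = 0.00391 over 4 class differences). Without Control 5 and Control 8 the difference was -30.6 points. The C-type class mean covers unequal members, since its median was 2.89% and its range 1.57 to 25.7%.

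**Figure D1:**
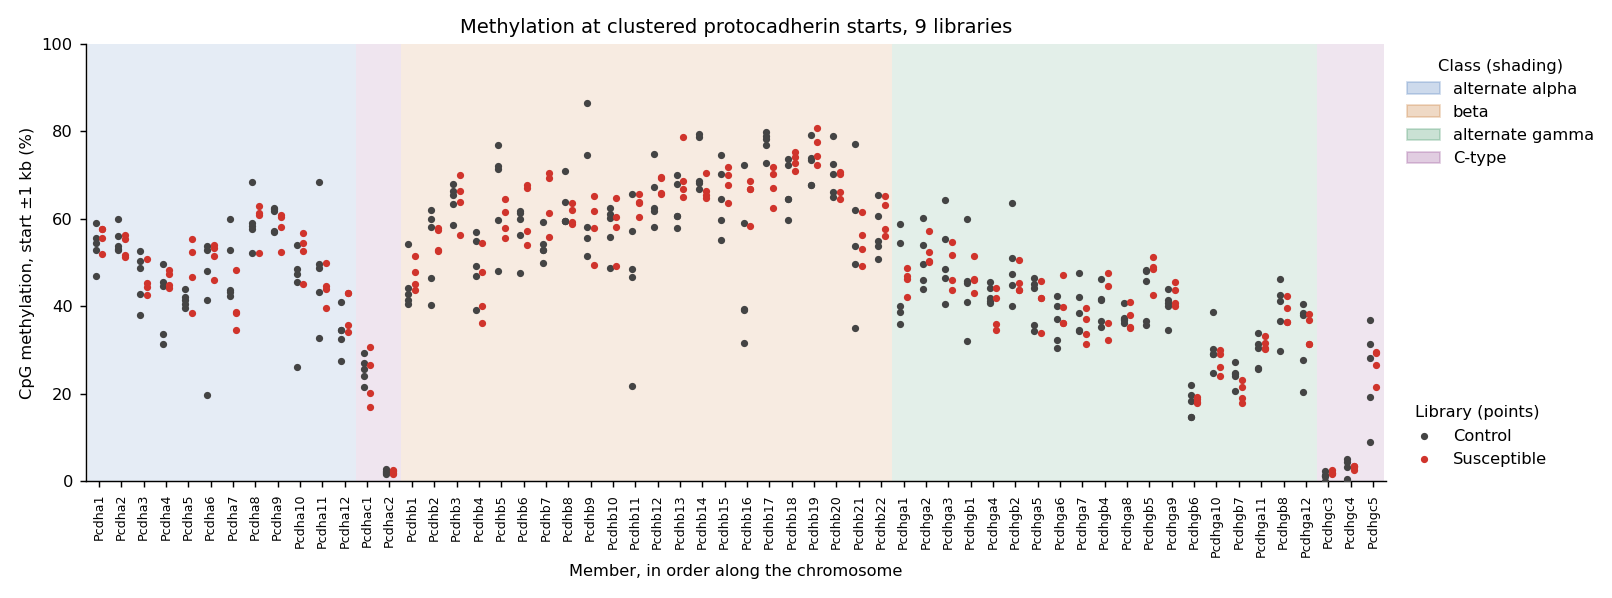
CpG methylation (percent of calls) within 1 kb of the start of each of the 58 members, in chromosome order, with 1 point per library (5 Control, 4 Susceptible) and shading for the 4 classes. Pcdhac2, Pcdhgc3 and Pcdhgc4 lie at or below 5.09% in every library, the beta starts form the highest block, and the 2 groups overlap at 57 of the 58 members.

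Pcdhac2, the last variable exon of the alpha cluster, was nearly free of methylation. In Control 2, 3, 4, 5 and 8 its level was 1.999, 2.02, 1.66, 2.91 and 2.26%, and in Susceptible 2, 3, 6 and 7 it was 1.99, 2.53, 2.34 and 1.71%. The groups overlapped, and each value rests on 3931 to 5888 calls, so that the 95% Wilson interval ran from 1.62 to 2.47% in Control 2. Such intervals cover counting error only, since reads without molecular identifiers are not independent molecules. Its window, 37142678 to 37144678, held 109 listed CpGs.

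Pcdhgc3 had the lowest start of all 58 members at 1.57% ± 0.701, in the window with the most CpGs (115). Its Control values were 1.27, 1.505, 2.28, 1.22 and 0.0763%, and its Susceptible values 2.49, 1.69, 1.85 and 1.78%. Control 8 was the low library, with a 95% Wilson interval of 0.0259 to 0.224%. Pcdhgc4 followed the same layout at 2.89% ± 1.67, with Control values of 5.09, 4.34, 3.21, 0 and 0.473% and Susceptible values of 2.61, 3.57, 3.21 and 3.56%. Control 5 had 0 of 1534 calls methylated at Pcdhgc4, which allows up to 0.196%. Control 5 and Control 8 were the low pair at both Pcdhgc3 and Pcdhgc4.

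The other 2 C-type starts were intermediate. Pcdhac1, the first of the alpha C-type exons, read 24.0, 27.1, 25.6, 21.5 and 29.5% in Control and 26.7, 20.3, 30.6 and 16.9% in Susceptible. The methylated part of its window lay past the start, with a mean of 7.47% over the 1 kb upstream and 35.5% over the 1 kb downstream. Pcdhgc5, the last variable exon of the gamma cluster, read 28.2, 31.4, 36.8, 8.89 and 19.3% in Control and 26.5, 21.6, 29.5 and 29.2% in Susceptible. Control 5 and Control 8 were again the 2 lowest libraries at Pcdhgc5, and the other 7 had a mean of 29.0%. Its window held 33 CpGs, the fewest of the C-type starts.

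The alternate and beta starts sat in the middle of the methylation scale. Of the 58 members, 54 (93.1%) had a mean level between 20 and 80%, whereas 20.9% of all 42529 gene windows that passed the same minimum did, and the medians were 47.1 and 76.2%. No member was above 80%, although 45.7% of all gene windows were. The 4 members below 20% were Pcdhac2, Pcdhgc3, Pcdhgc4 and the alternate gamma gene Pcdhgb6.

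Single CpGs were intermediate too. In Control 2, 63.1% of the 431 CpGs in alternate alpha windows had a level of 20 to 80%, as did 62.3% in beta windows, 57.1% in alternate gamma windows and 14.3% in C-type windows. The share of such CpGs was lowest in Control 5 and Control 8 in each class. In alternate alpha windows it was 30.1 and 31.6% in those libraries and 57.8 to 71.9% in the other 7. In beta windows it was 30.6 and 32.1% against 52.1 to 62.3%. In alternate gamma windows the corresponding values were 31.9 and 32.3% against 50 to 59.0%. In these 2 libraries the share of CpGs below 20% and the share above 80% were each higher than in any other library, in alternate alpha, beta and alternate gamma windows, while their beta and alternate gamma class means lay inside the range of the other 7. The part of strand disagreement in these shares was not tested.

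The beta starts, which belong to single-exon genes, were the most methylated class in this window. They exceeded the alternate gamma starts by 22.8 points ± 2.60 and the alternate alpha starts by 12.9 points ± 2.59, both in 9 of 9 libraries. The alternate alpha starts in turn exceeded the alternate gamma starts by 9.93 points ± 2.17, in 9 of 9 libraries. All 3 differences had p = 0.00391 and adjusted p = 0.00391 in the exact sign-flip permutation test. Without Control 5 and Control 8 they were 22.6, 12.1 and 10.5 points (signs as above).

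The order of alpha and beta depended on the stretch of DNA around the start. Within 500 bp of the start the alternate alpha level was only 2.42 points below the beta level (written alpha minus beta, -2.417; exact permutation p = 0.117). Over the 1 kb upstream alone, where 44 of 58 members had a value in every library, it was 5.10 points above it (exact permutation p = 0.0156, adjusted p = 0.0312), and beta minus gamma was -0.82 (exact permutation p = 0.512). The upstream alpha level has little behind it away from the start. Farther than 250 bp upstream the alternate alpha genes together held 0 to 42 calls per 250-bp bin in the shallowest library, against 398 in the nearest bin. The C-type starts were below the alternate alpha and gamma starts in each of these windows. The profile around the starts shows where the classes parted.

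**Figure D2:**
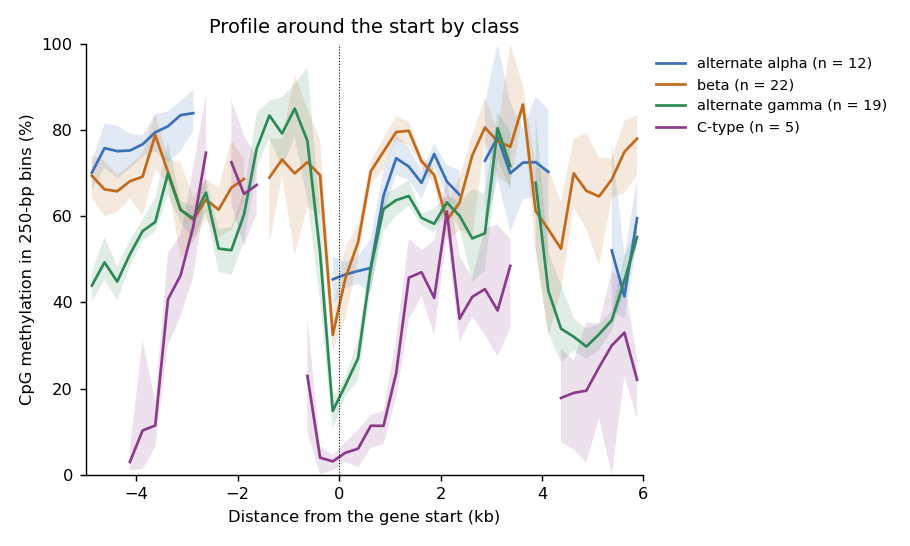
Mean CpG methylation (percent) in 250-bp bins by distance from the annotated start (kb, downstream to the right) for the 4 classes, with the shaded band giving the lowest and highest of the 9 libraries. Bins with under 100 calls in any library are left out. Among the bins drawn within 1 kb of the start each class is lowest next to it, the alternate gamma and C-type dips reach below 20%, and neighbouring gamma genes start within the plotted range.

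Within 1 kb of the start all classes were lowest next to it, at different levels, among bins with at least 100 calls in every library. In the 250-bp bin just upstream of it the level was 3.10% for C-type, 14.8% for alternate gamma, 32.5% for beta and 45.4% for alternate alpha genes. The C-type level was 11.4% in the bin from 750 to 1000 bp downstream, where alternate alpha was at 64.8%, alternate gamma at 61.7% and beta at 75.02%. The C-type members differed there: over the whole 1 kb downstream Pcdhgc3 read 1.55%, Pcdhac2 1.71% and Pcdhgc4 2.75%, against 26.2% at Pcdhgc5 and 35.5% at Pcdhac1. Upstream the alternate gamma dip was steep, from 85.0% in the bin farthest from the start within the window to 14.8% next to it. With the calls pooled within each side, the 1 kb downstream was more methylated than the 1 kb upstream in 21 of 22 beta genes, against 8 of 19 alternate gamma, 5 of 12 alternate alpha and 2 of 5 C-type genes. Downstream means cover all 9 libraries. The upstream mean of a gene covers only the libraries with calls there, which were as few as 5 at Pcdhb22. The low upstream beta bin next to the start held at least 1107 calls in every library, while the other 3 upstream bins, at 70.0, 72.6 and 69.5%, held 151 to 265 calls in their shallowest library. At alternate alpha genes the same 3 bins held only 0 to 42 calls in their shallowest library, and the bin next to the start 398.

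Among alternate alpha genes, Pcdha12 had the lowest start and Pcdha9 the highest. Pcdha12, the last alternate exon before Pcdhac1, read 32.5, 34.5, 41.0, 27.4 and 34.7% in Control and 43.2, 42.9, 35.7 and 34.1% in Susceptible. Pcdha9 read 62.5, 61.9, 57, 57.3 and 62.3% in Control and 52.3, 60.9, 60.5 and 58.2% in Susceptible, so that every library had Pcdha9 above Pcdha12. Pcdha4 (43.3% ± 6.4) was the second lowest and Pcdha8 (59.2% ± 5.11) nearly equalled Pcdha9. The other 8 alternate alpha genes lay between these, and their levels showed no run along the cluster (Spearman's rho of position against level -0.08, 12 genes).

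Among beta genes, Pcdhb1 was the lowest and Pcdhb19 the highest. Pcdhb1, the first gene of the cluster and set apart from the next by a gap of 27842 bp between windows, read 40.4, 42.7, 44.1, 41.6 and 54.2% in Control and 43.7, 45.2, 51.5 and 47.9% in Susceptible. Pcdhb19 read 73.6, 67.8, 73.9, 67.8 and 79.2% in Control and 74.3, 72.4, 80.7 and 77.6% in Susceptible. No library had Pcdhb1 as high as any library had Pcdhb19. Pcdhb4 (47.3% ± 7.48) was the second lowest and Pcdhb17 (73.1% ± 5.93) the second highest.

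The median level was higher in the later beta genes and lower in the later alternate gamma genes. The first 11 beta genes, Pcdhb1 to Pcdhb11, had a median of 58.5% and the last 11, Pcdhb12 to Pcdhb22, a median of 66.4% (rho 0.49 over 22 genes, from 0.25 to 0.63 in single libraries). The last 2 beta genes, Pcdhb21 (55.4%) and Pcdhb22 (58.7%), were below the class median of 62.1%. The 7 gamma genes from Pcdhga1 to Pcdhga5 had a median of 45.8%, the 6 from Pcdhga6 to Pcdhga9 a median of 39.1%, and the 6 from Pcdhgb6 to Pcdhga12 a median of 29.7% (rho -0.78 over 19 genes, from -0.75 to -0.45 in single libraries). The points of each correlation share the same 9 libraries and a neighbourhood on the chromosome, and it is given as a description. The A-type and B-type gamma genes, whose exons are interleaved along the cluster, overlapped, with medians of 39.5% over 12 genes and 40.2% over 7.

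Pcdhgb6 and Pcdhgb7 were the lowest alternate starts of all. Pcdhgb6 read 19.8, 18.3, 22.0, 14.7 and 14.8% in Control and 19.2, 18.2, 18.8 and 17.8% in Susceptible. Pcdhgb7 read 24.7, 20.7, 27.3, 24.0 and 24.5% in Control and 21.5, 17.9, 23.2 and 19.1% in Susceptible. Both were thus below the C-type start Pcdhgc5 on average. At the other end of the gamma range stood Pcdhga2, which read 45.9, 54.0, 44.1, 60.3 and 49.6% in Control and 57.1, 50.3, 50.2 and 52.5% in Susceptible, and Pcdhga3 (50.2% ± 7.24).

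CpG-rich starts were the less methylated ones. Across the 58 members the number of listed CpGs in the window and the level had a Pearson r of -0.79 and a rho of -0.74, again a description over members that share libraries. The class medians were 28 CpGs for beta, 52 for alternate alpha, 52 for alternate gamma and 71 for C-type genes. Within the classes the rho was 0.05 for beta (22 members), -0.12 for alternate alpha (12), -0.29 for alternate gamma (19) and -0.9 for the 5 C-type genes.

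Neither group of mice stood apart in the level of any class. At alternate alpha starts the Control libraries read 49.8, 48.4, 48.6, 44.2 and 49.0% and the Susceptible libraries 48.7, 50.7, 50.7 and 47.8%. The groups overlapped, and Susceptible minus Control was 1.501 points (48.0% ± 2.20 SD against 49.5% ± 1.47, n = 5 and 4; two-sided exact permutation p = 0.302, adjusted p = 0.603 over the 4 classes). At beta starts the Control libraries read 58.5, 62.0, 58.6, 60.8 and 63.8% and the Susceptible libraries 61.3, 61.5, 65.3 and 62.2%. They overlapped as well, with a difference of 1.84 points (60.7% ± 2.26 against 62.6% ± 1.88; exact permutation p = 0.198, adjusted p = 0.603). The smallest p that these splits of 9 libraries can give is 0.00794.

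At alternate gamma starts the Control libraries were close together, at 38.6, 39.3, 38.6, 39.0 and 38.5%, and the Susceptible libraries, at 40.2, 39.5, 38.0 and 36.9%, lay on both sides of them. The difference was -0.13 points (exact permutation p = 0.865, adjusted p = 0.929). At C-type starts the Control libraries read 12.1, 13.3, 13.9, 6.91 and 10.3% and the Susceptible libraries 12.1, 9.94, 13.5 and 10.6%. The difference was 0.23 points (exact permutation p = 0.929, adjusted p = 0.929), and without Control 5 and Control 8 it was -1.56 points (exact permutation p = 0.200). The C-type difference was also below 0 when 1 library was left out, at -0.87 points without Control 5, -0.01 without Control 8 and -0.43 without Susceptible 6. The alternate alpha difference was 0.54 points without Control 5 and -1.86 over the upstream 1 kb alone. The beta difference was 0.92 points without Susceptible 6 and -2.43 over the same upstream stretch. It was larger than 1.84 points without Control 8, the highest Control library at beta starts, and without Control 5 and Control 8.

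**Figure D3:**
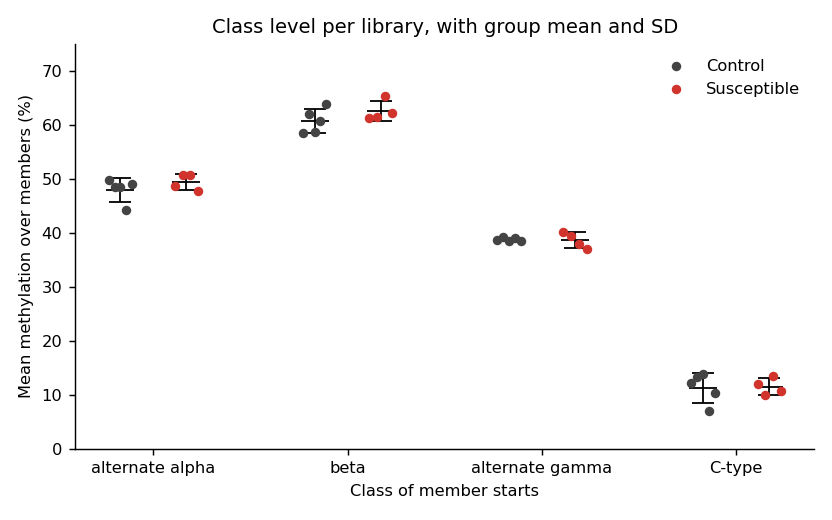
Mean methylation over the members of each class (percent), 1 point per library, for 5 Control and 4 Susceptible libraries, with the group mean (wide bar) and SD (capped line). The groups overlap in all 4 classes, and the low Control point of the alternate alpha class (44.2%) and of the C-type class (6.91%) is Control 5.

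Summed over the 1-kb tiles of a whole cluster, the groups also overlapped. The alpha cluster read 62.6% ± 0.912 in Control and 63.2% ± 1.30 in Susceptible (exact permutation p = 0.452, adjusted p = 0.679 over the 3 clusters), and the beta cluster 67.7% ± 0.976 and 68.5% ± 1.39 (exact permutation p = 0.357, adjusted p = 0.679). The gamma cluster read 49.5% ± 0.922 and 49.5% ± 0.753 (exact permutation p = 0.976, adjusted p = 0.976).

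No single member passed the threshold. A quasi-binomial logistic model of methylated and unmethylated calls, with its dispersion moderated by limma, was fitted to all 42529 gene windows. At an adjusted p under 0.05 it called 0 members and 0 windows in all (0.0%). At an unadjusted p under 0.05 it had 4 members of 58 (6.90%), against 1952 windows in all (4.59%). All 4 were beta genes, and every one of them had an adjusted p of 0.989 in the limma-moderated fit. A limma fit on logit levels also called 0 windows, with 2 members and 1550 windows at an unadjusted p under 0.05. The Susceptible mean was higher at 32 members and lower at 26, and it was higher at 47.8% of all windows.

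**Figure D4:**
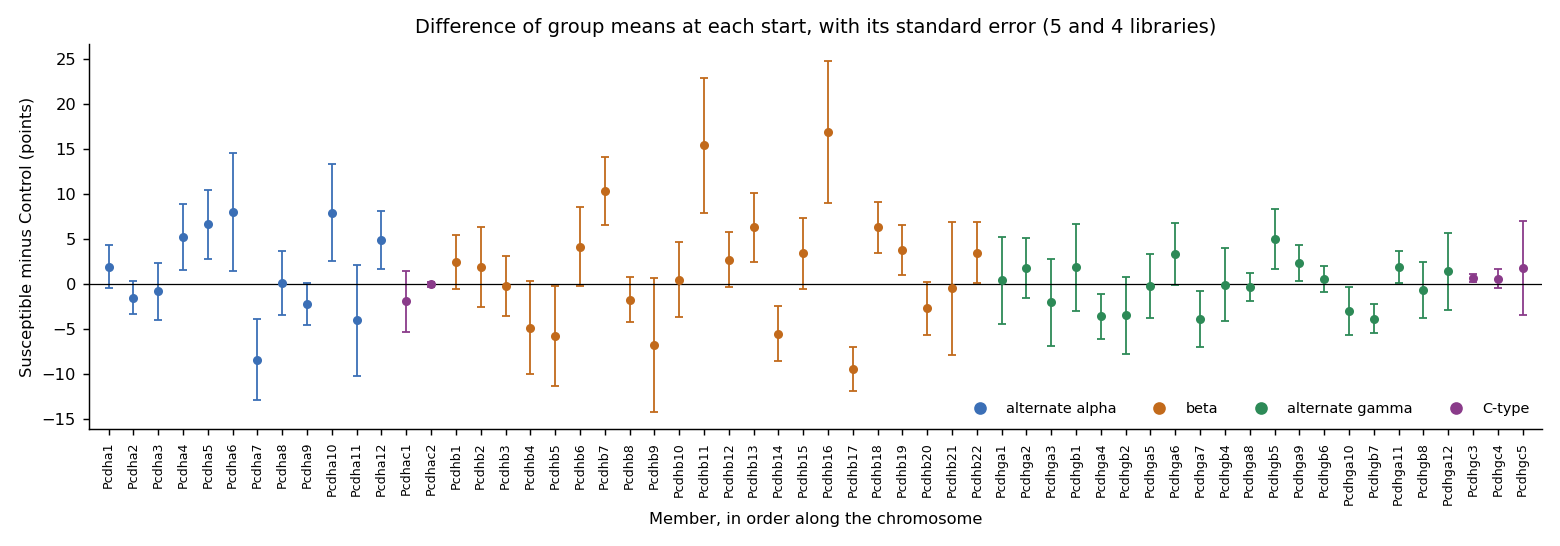
Difference of the group means (Susceptible minus Control, percentage points) at each of the 58 starts in chromosome order, coloured by class, with its standard error from 5 and 4 libraries. The largest differences, 16.9 points at Pcdhb16 and 15.4 at Pcdhb11, are at beta starts and have the widest errors, and Pcdhac2, Pcdhgc3 and Pcdhgc4 lie within 0.68 points of 0.

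The member with the smallest unadjusted p was Pcdhb17. Its Control libraries read 72.7, 77.0, 79.0, 78.2 and 79.8% and its Susceptible libraries 71.9, 70.2, 67.0 and 62.4%. Every Susceptible library was below every Control library, by a margin of less than 1 point between the nearest 2. This was the only member whose groups did not overlap, where 1.74% of all windows did not, and the difference of means was -9.45 points ± 2.43 (SE; unadjusted p = 0.00817, adjusted p = 0.989, moderated with limma). At CpGs listed in all 9 libraries, 9 of the 38 in the window, the difference was 0.13 points, and on reverse-strand cytosines alone it was 3.43 points.

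Pcdhb16 and Pcdhb11 had the largest differences and also the largest spread between libraries (SD 15.1 and 14.3 points). Pcdhb16 read 59.2, 72.3, 31.7, 39.1 and 39.4% in Control and 67.0, 58.3, 68.6 and 66.9% in Susceptible. Control 4, 5 and 8 were the low libraries, Control 3 was the highest of all 9, and the difference was 16.9 points ± 7.88 (SE; unadjusted p = 0.018, adjusted p = 0.989, moderated with limma). Its window held only 19 CpGs and 133 to 350 calls per library, and the 95% Wilson interval was 25.4 to 38.8% in Control 4 and 65.0 to 78.5% in Control 3. Without Control 5 and Control 8 the difference was 10.8 points, and at the 1 CpG listed in all 9 libraries it was -2.58 points.

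Pcdhb11 read 46.7, 57.3, 48.6, 21.7 and 65.6% in Control and 60.3, 63.9, 65.8 and 63.7% in Susceptible. Control 5 was far below the rest and Control 8 was among the highest, so the groups overlapped. The difference was 15.4 points ± 7.47 (SE; unadjusted p = 0.0367, adjusted p = 0.989, moderated with limma) and 8.85 points without Control 5. Over the upstream 1 kb alone it was -11.3 points. Pcdhb13 read 60.6, 60.8, 58.0, 70.0 and 67.9% in Control and 68.6, 65.1, 66.7 and 78.6% in Susceptible, with a difference of 6.34 points (unadjusted p = 0.042, adjusted p = 0.989, moderated with limma). Without Susceptible 7, the highest library at Pcdhb13, the difference was 3.38 points (unadjusted p = 0.14, adjusted p = 0.999, moderated with limma). Leaving out any other single library gave 4.97 to 7.97 points. Without Control 5 and Control 8 the unadjusted p at Pcdhb13 was 0.00809 (adjusted p = 0.94, moderated with limma).

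The other members of largest difference were at an unadjusted p above 0.05 in the same quasi-binomial fit. Pcdhb7 read 59.3, 52.9, 50, 54.3 and 53% in Control and 55.8, 61.3, 69.4 and 70.6% in Susceptible, a difference of 10.3 points in which only Control 2 and Susceptible 2 crossed. A limma fit on logit levels gave Pcdhb7 an unadjusted p of 0.0405 (adjusted p = 0.965). Its difference turned to -1.28 points over cytosines with at least 20 calls, -14.57 over the CpGs listed in all 9 libraries, 2 of the 25 in the window, and -12.27 over the reverse strand alone. Pcdha7 read 42.3, 43.7, 43.3, 59.9 and 52.8% in Control and 38.4, 48.3, 38.7 and 34.6% in Susceptible, a difference of -8.38 points that was -3.09 without Control 5 and Control 8. Pcdhb9, whose window held 11 CpGs, read 55.7, 51.6, 58.1, 74.7 and 86.5% in Control and 57.9, 49.4, 61.8 and 65.2% in Susceptible. Its difference of -6.75 points was 3.44 points without Control 5 and Control 8, the 2 highest libraries, and 0.71 points within 2 kb of the start.

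Member starts differed between groups about as much as other windows of like level. The median size of the difference was 2.69 points over the 58 members and 1.40 over all windows. For the 53 members other than C-type it was 3.32 points, and for all 6647 windows in the same range of levels, 18.2 to 74.1%, it was 3.25. Of those 53 members 4 (7.55%) had an unadjusted p under 0.05, as did 533 (8.02%) of the 6647 windows. The SD between libraries had a median of 5.45 points at these 53 members and 6.83 points at the 6647 windows.

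Away from the starts the clusters were more methylated. Of 661 tiles of 1 kb with any listed CpG, 304 passed the minimum (88 in alpha, 91 in beta and 125 in gamma). The 48 tiles that held a member start had a median level of 37.3%, the other 256 a median of 71.8%, and the 85 whose centre lay over 3 kb from any start a median of 81.6%. Over the whole genome the median of the 1041809 tiles was 88.8%. Between 20 and 80% lay 70.4% of cluster tiles and 21.1% of all tiles.

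**Figure D5:**
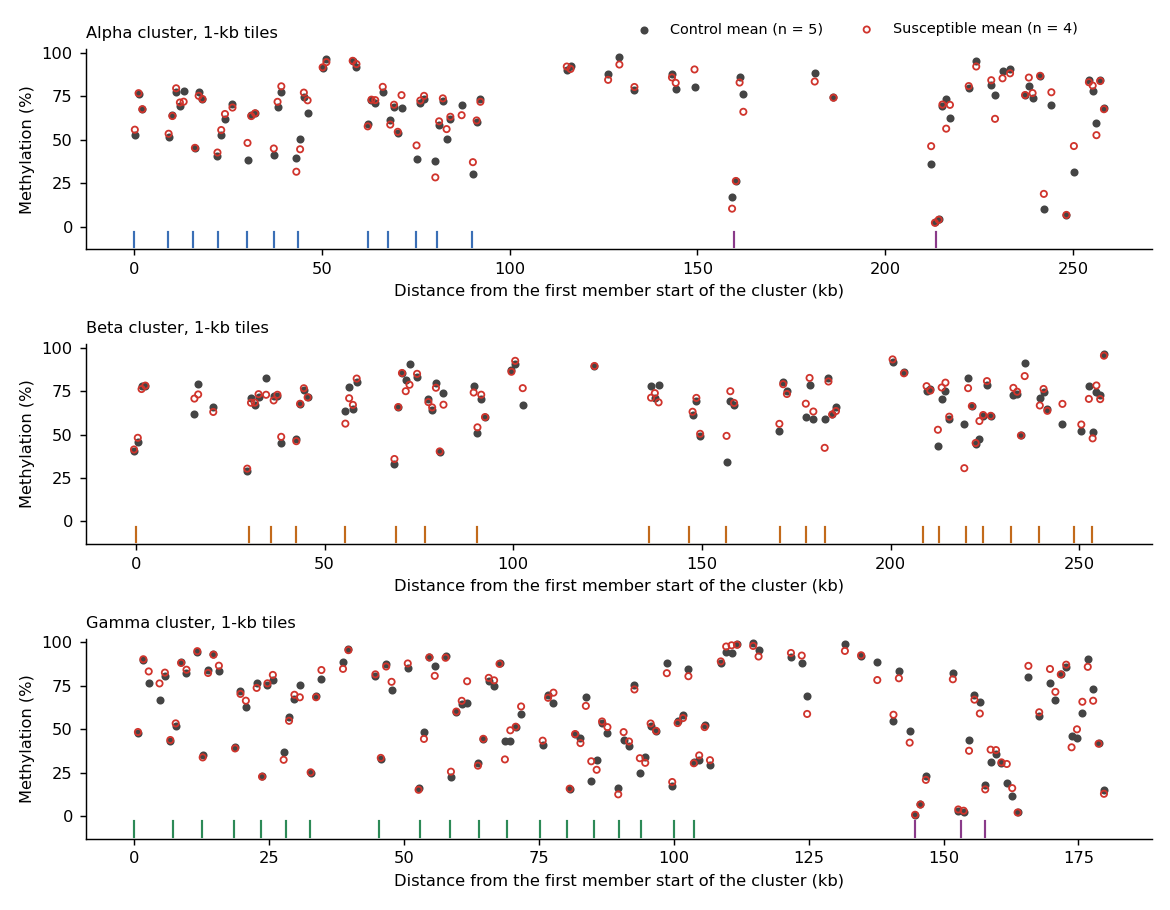
Mean methylation (percent) of each 1-kb tile that passed the minimum, by distance from the first member start of its cluster (kb), for the Control (filled) and Susceptible (open) means. Ticks under each panel mark member starts, purple for C-type and the class colour for the rest. The lowest tiles lie at C-type starts and at a few places past them, and the Control and Susceptible means run close together.

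The lowest tiles of the alpha and gamma clusters lay at or past the C-type exons. In the alpha cluster they were 37143001 to 37144000 (2.34% ± 1.95) and 37144001 to 37145000 (4.05% ± 0.950), both at Pcdhac2, and 37178001 to 37179000 (6.68% ± 2.72), whose centre is 34823 bp past the Pcdhac2 start. In the gamma cluster they were 37806001 to 37807000 at Pcdhgc3 (0.841% ± 0.411), 37825001 to 37826000 at 5955 bp past the Pcdhgc5 start (2.42% ± 2.28) and 37815001 to 37816000 at Pcdhgc4 (2.75% ± 1.43). The beta cluster had no tile below 20%. Its lowest were 37294001 to 37295000 at Pcdhb2 (29.5% ± 10.1), 37333001 to 37334000 at Pcdhb6 (34.5% ± 9.51) and 37345001 to 37346000, 3799 bp past the Pcdhb7 start (40.2% ± 10.2).

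Cluster tiles gave 0 calls between the groups, as did all 1041809 tiles (0.0%), in the fit moderated with limma. At an unadjusted p under 0.05 were 17 of the 304 cluster tiles (5.59%, 10 higher and 7 lower in Susceptible), against 4.38% of all tiles. A limma fit on logit levels had 3 of the 304, against 36550 of all 1041809 tiles. The groups did not overlap in 5 cluster tiles (1.64%), against 1.56% of all tiles. The smallest p was at 37484001 to 37485000, whose centre is 520 bp upstream of the Pcdhb17 start. There the Control libraries read 35.6, 59.9, 41.7, 56.1 and 87.7% and the Susceptible libraries 28.1, 31.1, 29.8 and 33.6%, on 72 to 173 calls per library. Every Susceptible library was below every Control library (difference -25.6 points, unadjusted p = 0.00352, adjusted p = 0.997, moderated with limma). Without Control 8, the highest library there, the difference was -17.7 points. The next were 36960001 to 36961000 at Pcdha5 (9.56 points, unadjusted p = 0.00965) and 37442001 to 37443000 at Pcdhb13 (7.54 points, unadjusted p = 0.0158), both with adjusted p = 0.997 from the same limma-moderated fit. The difference of the tile at Pcdhb13 was 4.51 points without Susceptible 7. The tile at Pcdhb17 lies almost wholly inside the window of that member, and the tiles at Pcdha5 and Pcdhb13 wholly inside theirs. They share calls with those windows and are no separate evidence.

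Genes that act on the clusters showed no called change in the windows taken for their starts. Of 16 listed regulators, which include Ctcf (the insulator protein that binds protocadherin promoters), the cohesin genes, the DNA methyltransferases and Smchd1 (a silencing factor of the clusters), 0 were called and 0 had an unadjusted p under 0.05. Their median level was 6.89%, with 7 higher and 9 lower in Susceptible. The largest differences were 5.12 points at Stag1, which was 3.32 without Control 5, and -4.06 at Dnmt3a, which was -2.06 without Control 8, -1.67 without Susceptible 7 and -6.36 without Susceptible 3. Several of these windows were partly or highly methylated: Wapl read 52.7%, Dnmt3a 81.4%, Dnmt1 88.0% and Stag1 88.7%. Nipbl (95.6%) and Rad21 (93.7%) were higher still. For Nipbl and Rad21 no strand was at hand and the CpG-richer gene end was taken, while the other 4 had a strand from the table. A strand only picks the outer bound of the annotated gene. Whether that bound is the promoter in use in this tissue was not tested.

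The non-clustered protocadherins, which are single genes outside the clusters, were mostly unmethylated in the windows taken for their starts, unlike the alternate members. For Pcdh1, Pcdh12 and Pcdh11x no strand was at hand and the CpG-richer gene end was taken. Of 12 listed, 10 were below 20% and the median was 3.21%. None was called, and 6 were higher and 6 lower in Susceptible. Pcdh9 alone had an unadjusted p under 0.05 (-8.18 points, unadjusted p = 0.0231, adjusted p = 0.989, moderated with limma). Pcdh10 read 0.966% and Pcdh19 0.845%, beside 1.57% at Pcdhgc3 and 2.16% at Pcdhac2.

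Markers of other cells were measured beside the group comparison. All 8 astrocyte windows were lower in Susceptible (median -4.14 points, 0 called, 0 at an unadjusted p under 0.05), and their mean per library ranged from 38.3 to 45.0% in Control and 29.8 to 40.04% in Susceptible. The 8 oligodendrocyte windows (42.7 to 47.7% in Control, 42.1 to 44.2% in Susceptible), the 8 microglia windows (65.6 to 71.3% and 65.8 to 70.4%) and the 6 endothelial windows (57.1 to 63.5% and 57.5 to 60.4%) overlapped in range. So did the 6 cortical projection neuron windows (22.3 to 32.7% and 20.4 to 30.4%). None of these genes was called, and their part in the protocadherin values was not tested.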

How the data were processed

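Per the submitters' processing notes, Picard, Bismark and Bowtie were used with the mm10 build; the sources used here do not give their versions, their roles or whether duplicates were removed. Per the file headers, the authors deposited for each library a count of calls at every listed CpG cytosine and the percent read as C or as T. The lowest count is 10 calls, so listed totals are not the full depth. Methylated calls were recovered as count times percent of C and were whole within 0.049 calls at cytosines of up to 1000 calls. Control 5 and Control 8 repeated 4 and 8 entries, of which the first was kept. All value columns were mapped to libraries.

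Both strands of a CpG were added. Gene starts came from the RefSeq table (GRCm38). For members, the end that the cluster does not share was taken. It can lie at the coding start where no 5′ untranslated part is annotated. Of the other windows, 26794 used a strand from the promoter table and 22702 the CpG-richer gene end. A class level is the mean over its members in 1 library. Groups were compared by exact permutation of the 9 libraries and classes by exact sign flips, two-sided and adjusted by Benjamini-Hochberg over each family of 4 classes, 3 clusters or 4 class differences. Windows and 1-kb tiles of autosomes and X, with 3 or more CpGs and 20 or more calls per library, were tested in a quasi-binomial model with dispersion moderated by limma 3.58.1 (R 4.3.3) and kept at 1 or more, with Benjamini-Hochberg adjustment over all of them. This model was also run on simulated tiles that all had the same excess spread between libraries, and no conclusion is drawn from that run here. Python 3.11.15, numpy 2.4.6, pandas 2.3.3, scipy 1.17.1 and matplotlib 3.10.9 did the rest.

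The members and lists were chosen with earlier results of these data known. Named members are the C-type genes, Pcdhb1, the 2 highest and 2 lowest of each other class, the 3 largest differences in each direction, any call, and the 2 of largest SD. Named tiles are the 3 lowest of each cluster and the 3 of smallest p. Pcdhb13 and the tiles over 3 kb from a start were named after their values were seen. Of the lists, at most the 2 genes of largest difference were to be named, and others named were chosen after their values were seen. Promoter motifs were not analysed here. The labels give no batch and do not say outright that each library is a separate mouse; if not, p-values measure only the spread between libraries. The numbers 2 and 3, which both groups carry, did not pair the libraries: over the 58 members the deviations of same-numbered libraries had r of -0.27 and -0.09. Alternatives changed the coverage minimum, CpGs, weighting, strand, window, libraries, filter and model. Leaving out single libraries at Pcdhb13, Taf7, Stag1, Dnmt3a and the named tiles was chosen after seeing the data.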

Additional observations from a re-analysis of the deposited data

Results flagged for a closer look

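Class, cluster and named start levels were checked within each group, 58 checks in all. In 2 of them a library lay far from the others of its group, and about 1 check in 20 has one by chance. At alternate alpha starts Control 5 had a class level of 44.16%, with the other 4 Control libraries between 48.44 and 49.8%. Without it the group difference was 0.54 points in place of 1.501. At the Pcdhb1 start Control 8 had 54.2%, with the other Control libraries between 40.44 and 44.14%. These are the 2 libraries whose strands differed most within the interval, and the part of that in these values was not tested.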

How the results depend on the processing

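The counts of called members and of called cluster tiles were 0 in all 34 repeats, and no group difference reached an adjusted p below 0.161 in its exact permutation test. Counts of members at an unadjusted p under 0.05 ran from 0 to 6. The 0 was of 58 in limma with the replicate block, beside 2439 of all 44524 windows. The 6 was of 58 without Control 5 and Control 8 (2312 of all 43940 windows) and of 54 within 500 bp (1753 of 36308). Cluster tiles ran from 3 of 304 in limma on logit levels, beside 36550 of all 1041809. The most were 27 of 449 at a minimum of 1 CpG and 1 call, beside 80117 of all 1709429. Of 84 repeats of the class differences, 81 kept direction and side of the threshold. Alpha minus beta was -2.417 within 500 bp and 5.101 over the upstream 1 kb, and beta minus gamma was -0.8198 there; leaving out 1 library gave -13.42 to -12.43 and 22.27 to 23.2.

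Group differences changed sign in 27 of 139 repeats. C-type starts gave -0.6745 (CpGs listed in all 9 libraries), -0.5256 (forward strand), -0.2563 (500 bp), -1.299 (2 kb), -0.00828 (upstream 1 kb), -1.562 (without Control 5 and Control 8) and -0.8666 to 0.8825 leaving out 1 library. The gamma cluster gave 0.1963 (CpGs in all 9), 0.9141 (equal weight per CpG), 0.6655 (reverse strand) and -0.3725 to 0.2385 leaving out 1 library. Alternate gamma starts gave 0.1335 (2 kb), 0.4405 (upstream) and -0.6413 to 0.4444 leaving out 1 library. Alternate alpha starts gave -0.6795 (reverse strand) and -1.862 (upstream), and beta starts -0.1246 and -2.428. Class levels used the 55 members with a value in every library on the reverse strand, and 44 upstream.

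With the replicate block over numbers 2 and 3, which did not pair the libraries, alternate gamma starts gave 0.9096, C-type starts -1.699, the gamma cluster 0.6272, Pcdha7 0.3607 and Pcdhb16 -3.091, with 0 calls; the smallest p that 2 pairs allow is 0.5. The blocked limma fit had 0 of 58 members at an unadjusted p under 0.05, beside 2439 of all 44524 windows. It had 10 of 366 cluster tiles, beside 68832 of all 1342634. The same libraries without the block, a fit chosen after seeing the data, had 0 members and 9 cluster tiles. Over all features that fit had 2472 windows and 68877 tiles.

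Other single members changed sign: Pcdhb7 at -1.28 (cytosines of at least 20 calls), -14.57 (CpGs in all 9) and -12.27 (reverse strand), Pcdhb17 at 0.1284 (CpGs in all 9) and 3.428 (reverse strand), Pcdhb16 at -2.584 (CpGs in all 9), Pcdhb9 at 0.7143 (2 kb) and 3.436 (without Control 5 and Control 8), and Pcdhb11 at -11.34 (upstream). Of 375 repeats of named levels, 62 moved by more than 1 SD, mostly with the width of the window. The cause of these changes was not tested. The standard error of the group difference at a start reached 7.88 points (Pcdhb16), so differences of a few points were not detectable at the most variable starts.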

Other observations

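Beside the member starts, the clusters held a few lowly methylated stretches with no member start within 3 kb. Of 85 such tiles 5 were below 20%. In the alpha cluster, 37172001 to 37173000, whose centre is 28823 bp past the Pcdhac2 start, read 15.7, 5.86, 7.08, 10.3 and 12.6% in Control and 22.6, 16.8, 26.7 and 9.11% in Susceptible. The groups overlapped (8.49 points, unadjusted p = 0.0238, adjusted p = 0.997, moderated with limma). The tile 37180001 to 37181000, 36823 bp past that start, had a mean of 38.0% and is not among those 5. In it every Susceptible library (40.9, 43.6, 52.0 and 48.9%) was above every Control library (40.2, 31.3, 32.9, 13.3 and 38.8%). The nearest 2 were Susceptible 2 at 40.85% and Control 2 at 40.23%, and the groups did not overlap in 1.56% of all tiles. The difference of 15.05 points was 10.54 without Control 5. The values of this tile rest on 80 to 167 calls per library (unadjusted p = 0.0454, adjusted p = 0.997 in the same limma-moderated fit). The low tile 37178001 to 37179000 read 6.67% ± 3.50 in Control and 6.69% ± 1.84 in Susceptible. In the gamma cluster, 37824001 to 37825000 (13.6% ± 5.31) adjoins the low tile past Pcdhgc5, and 37841001 to 37842000 (14.2% ± 6.49) holds the far end of the gamma genes.

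Genes next to and between the clusters were mostly unmethylated at the end measured. Diaph1 read 3.76% ± 1.15, Zmat2 5.40% ± 2.98, Hdac3 5.77% ± 1.69 and the shared window of Hars and Hars2 4.05% ± 0.938. Between the beta and gamma clusters, the mitochondrial carrier gene Slc25a2 read 91.8% ± 1.63 and Taf7, a subunit of a general transcription factor, 17.9% ± 10.7. Taf7 was 22.2% ± 13.05 in Control and 12.5% ± 2.66 in Susceptible (unadjusted p = 0.0453, adjusted p = 0.989, moderated with limma). Control 5 read 42.0% at Taf7, and the difference of -9.75 points was -4.80 without it. None of the neighbouring genes was called. The windows of the read-through genes Gm37013 and Gm38667 lie almost on those of Pcdha4 and Pcdha7, and they are no separate evidence.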
